A study of Mus musculus with 8 samples.

Results

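Interferon response genes were followed across the clusters and reproductive stages of the mouse mammary epithelium through 8 members, *Isg15*, *Ifit1*, *Ifit3*, *Irf1*, *Irf7*, *Bst2*, *Ly6a* and *Ido1*, of the 27998 genes measured. They were taken by symbol, and all 8 had transcripts in cells of the epithelial clusters. Each of 8 libraries held single cells of 1 C57BL/6N mouse, with 2 mice per stage. The stages were nulliparous mice at 8 weeks of age (NP), gestation at day 14.5 (G), lactation at day 6 (L) and the post-involution gland at 11 days past weaning (PI). No genotype or agent separates the stages, but ages are given for NP mice alone, so age and stage cannot be told apart. Cells were sorted for EpCAM after staining for CD31, CD45 and Ter119, so immune and endothelial cells were meant to be removed. Levels are CPM, the captured transcripts of a gene (counted by their unique molecular tags, UMIs), summed over the cells of 1 cluster in 1 mouse and scaled to the total of that sum. By the study's vaginal smears, both NP mice and the second PI mouse were in oestrus and the first PI mouse in dioestrus, so that the PI mice differ in phase.

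Interferons are secreted signals of antiviral defence. Type I interferons act through Ifnar1 and Ifnar2 and factors that include Stat2 and Irf9, which bind the interferon-stimulated response element (ISRE), whereas interferon gamma acts at gamma-activated sites (GAS). Isg15 is a ubiquitin-like protein that is attached to other proteins, and Ifit1, of the same family as Ifit3, binds to viral RNA. Irf1 and Irf7 are transcription factors of the response, Irf7 being the main amplifier of type I interferon production. Bst2 (tetherin) holds virus particles at the cell surface, Ly6a (Sca-1) is a surface protein used to sort mammary and blood progenitors, and Ido1 starts the breakdown of tryptophan to kynurenine.

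In GRCm38 coordinates, all members are protein-coding genes: *Isg15* at chr4:156199424-156200818 on the minus strand, *Ifit1* at chr19:34640871-34650009 and *Ifit3* at chr19:34583531-34588731 on the plus strand, *Irf1* at chr11:53770014-53778374 on the plus strand, *Irf7* at chr7:141262706-141266481, *Bst2* at chr8:71534255-71537456, *Ly6a* at chr15:74994877-74998031 and *Ido1* at chr8:24584136-24597009 on the minus strand. RefSeq promoter sequences (GRCm38.p6) were found for 6 of them, and the bases from 160 to 31 before the start are shown for the 5 whose window held a match to an ISRE core (GAAA, any 2 bases and GAAA again) or to GAS (TTC, any 3 bases and GAA), searched on both strands. Capitals mark the matches, which overlap in *Isg15* and *Bst2*.
Isg15, chr4:156200849-156200978, minus strand: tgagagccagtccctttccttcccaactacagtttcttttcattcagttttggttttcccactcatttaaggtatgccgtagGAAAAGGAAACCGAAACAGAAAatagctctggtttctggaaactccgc
Ifit1, chr19:34640729-34640858, plus strand: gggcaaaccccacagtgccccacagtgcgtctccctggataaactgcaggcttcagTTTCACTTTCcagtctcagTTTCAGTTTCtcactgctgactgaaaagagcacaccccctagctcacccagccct
Ifit3, chr19:34583369-34583498, plus strand: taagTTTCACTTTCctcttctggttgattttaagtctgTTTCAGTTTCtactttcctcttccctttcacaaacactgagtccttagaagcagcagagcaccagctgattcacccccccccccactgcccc
Bst2, chr8:71537503-71537632, minus strand: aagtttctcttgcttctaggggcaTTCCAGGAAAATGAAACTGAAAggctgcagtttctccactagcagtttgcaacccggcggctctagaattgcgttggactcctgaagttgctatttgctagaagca
Irf1, chr11:53769854-53769983, plus strand: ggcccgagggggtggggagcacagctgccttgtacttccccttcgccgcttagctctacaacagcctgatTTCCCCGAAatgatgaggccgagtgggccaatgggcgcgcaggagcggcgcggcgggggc

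*Isg15* held 3 overlapping ISRE cores, *Ifit1* and *Ifit3* 2 each on the opposite strand, *Bst2* 2 with a GAS match, and *Irf1* a GAS match in 1 of its 2 RefSeq entries. The window of *Irf7* held neither. Over all 32851 promoter entries, reaching from 250 bases before to 50 after the start, 3.44% held the ISRE core and 8.30% held GAS. A match describes the letters and not a bound site. The upstream sequence of *Ifit3* shares an identical run of 169 bases with that of its copy *Ifit3b*, and the last 500 bases of its transcript, where these libraries were read, share 14.9% of their 50-base words with other genes, so that *Ifit3* counts are uncertain. For *Ly6a* this share was 4.43% and for *Isg15* 0.665%, and for the other members it was 0.

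The libraries held 13785920 to 35711533 UMIs each, and 25009 cells passed the authors' quality flags and were joined to their counts. The authors had removed barcodes found in more than 1 library, as a guard against swapped indices. These made 791 entries, each barcode being counted in every library that held it. The authors also set aside 310 cells of cluster C20 as doublets, which were left out here too. In the authors' annotation C1 to C15, which they treat as epithelium, held 23183 cells, and C16 to C19 held 1516. Of the latter, C17 carried myeloid markers (45420 to 65710 CPM over the list), C18 fibroblast markers (12800 to 48500 CPM) and C19 endothelial markers (3254 to 4228 CPM), while in C15 pericyte markers summed to 6022 and 5299 CPM, so that it is called pericyte-like here. Most clusters come from 1 stage, so that stage and cluster largely coincide, and clusters were called on the same transcripts, so that levels between clusters are a description without a test. In L mice the immediate early and heat shock genes of a dissociation stress list summed to more in the same cell types than in G mice, for instance 27300 and 22160 CPM in basal cells against 6547 and 3941 CPM, and the part of this in the changes from G to L was not tested.

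Outside the epithelium 7 members had a higher median level, whereas *Ido1* was found almost only in hormone-sensing cells. In the 15 sums of C17 to C19, *Isg15* lay between 109.3 and 562.1 CPM (median 256.2), against 0 to 83.5 CPM (median 28.5) in 35 sums of C1 to C15, without overlap. *Bst2* reached 1039 CPM in C19, and *Ly6a* reached 1889 CPM in C18 but 4.47 to 55.2 CPM in C17. *Ifit1* (28.0 to 333.8 CPM), *Ifit3* (4.43 to 195 CPM) and *Irf7* (26.6 to 167.5 CPM) were likewise mostly above their epithelial ranges of 0 to 32.4, 0 to 17.1 and 0 to 74.9 CPM, whereas *Irf1* overlapped (15.6 to 262.1 CPM against 17.6 to 191.3 CPM). *Ido1* was at 0 in 13 of the 15 sums of C17 to C19 and at most 7.25 CPM.

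**Figure D1:**
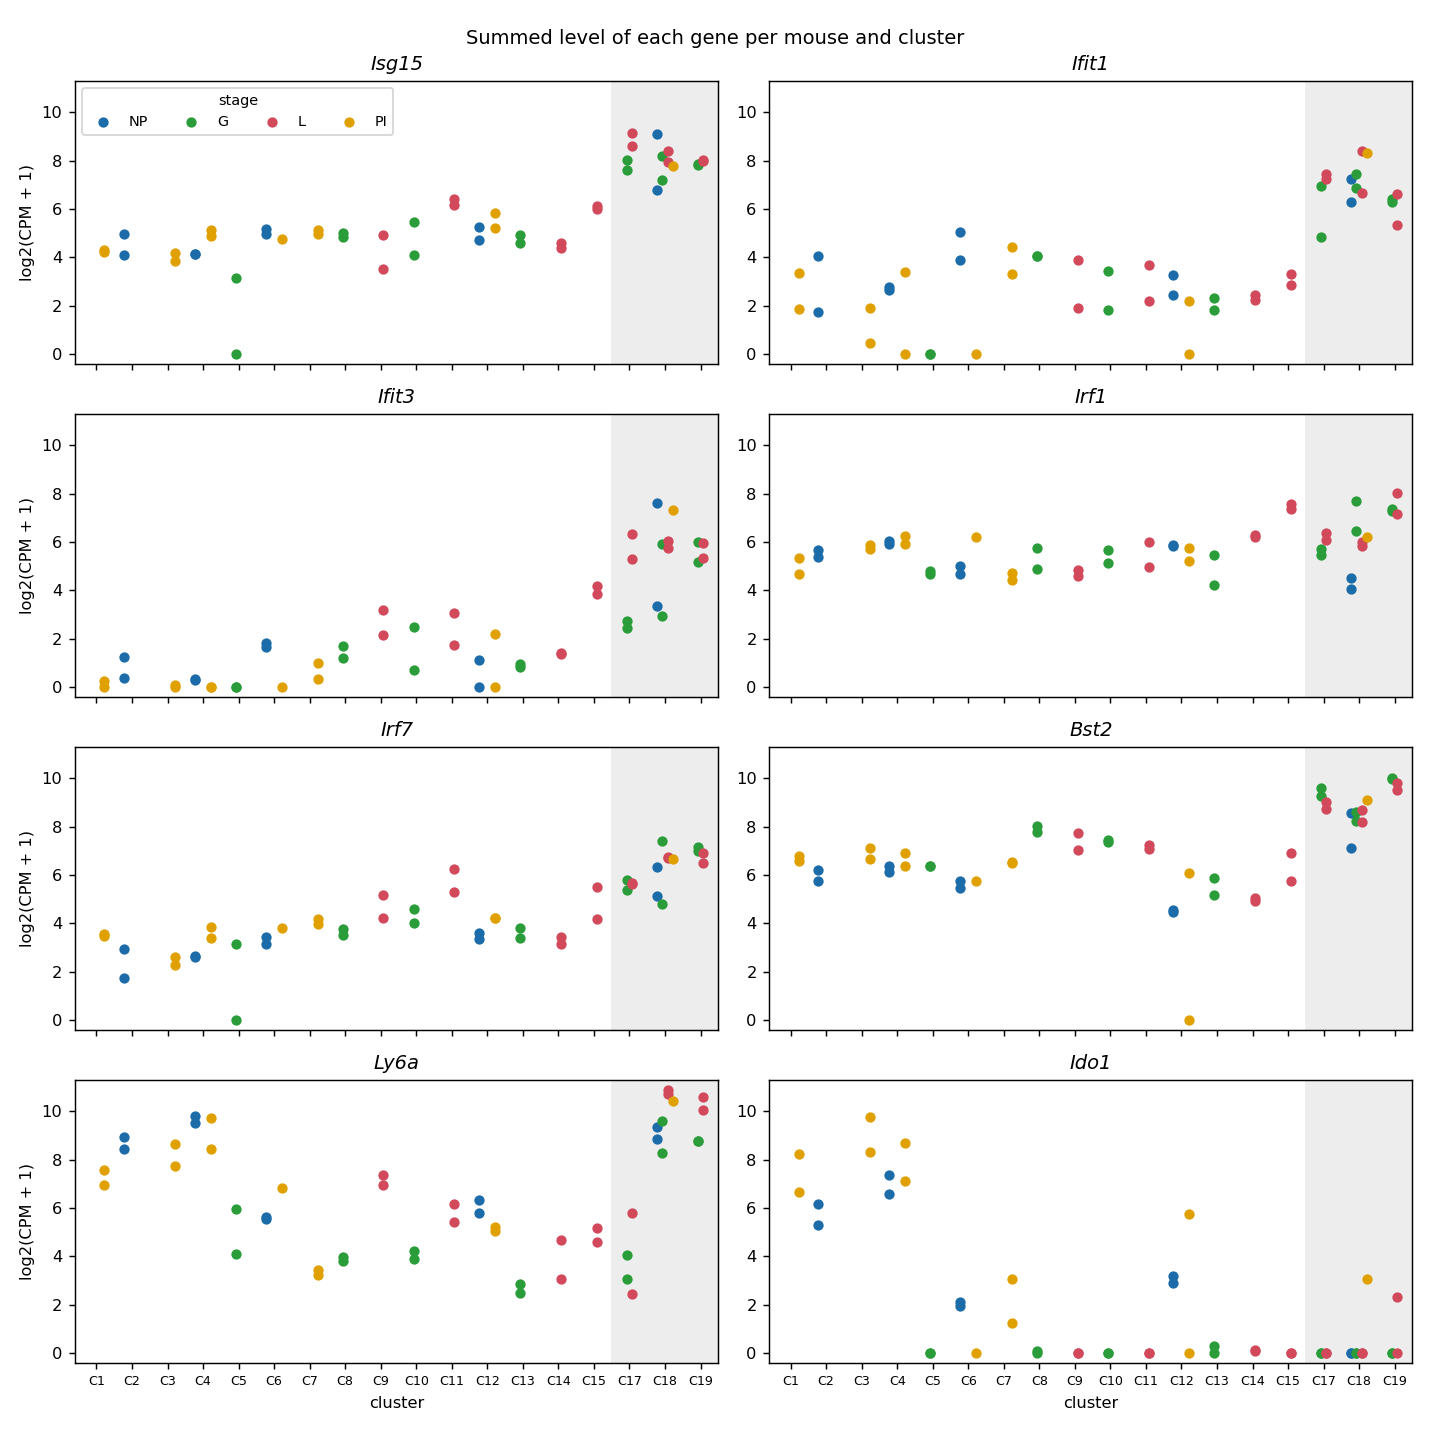
Level of each member, as log2(CPM + 1) on the vertical axis, in every sum of at least 20 cells of 1 mouse and 1 cluster (horizontal axis), coloured by stage; C17 to C19 are shaded. *Isg15* and *Bst2* are highest in the shaded clusters, and *Ido1* rises above 38 CPM only in C1 to C4, apart from 52.8 CPM in C12 of 1 PI mouse.

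Among epithelial clusters, each at the stage that holds most of its cells, the effector genes were highest in different places. *Isg15* was highest in C11, the alveolar progenitors of lactation, with 70.3 and 83.5 CPM in the 2 mice, followed by the pericyte-like C15 with 68.3 and 62.3 CPM. The next 9 clusters, from C6 (32.7 ± 3.59 CPM, mean ± SD, n = 2 here and below) down to C9 (20.1 ± 13.5 CPM), each overlapped their neighbour in the order. In the differentiated hormone-sensing clusters *Isg15* was low, at 16.9 and 16.5 CPM in C4 and 17.4 and 13.5 CPM in C3. *Ifit1* led in the luminal progenitor cluster C6 of NP mice with 13.9 and 32.4 CPM, which overlapped C8, the differentiated alveolar cells of gestation (15.9 and 15.6 CPM), and C7, the luminal progenitors of PI mice (8.93 and 20.6 CPM). *Ifit3* was sparse everywhere, with 17.1 and 13.4 CPM in C15 and under 9 CPM in all other epithelial sums.

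The transcription factors differed in their order. *Irf1* was found in all epithelial clusters, with 166.1 and 191.3 CPM in C15, then 77.6 and 74.0 CPM in the basal cluster C14 of lactation and 65.4 and 59.1 CPM in C4. Its lowest mean, 23.0 ± 3.61 CPM in C7, overlapped the clusters just above it. *Irf7* was highest in C11, at 74.9 and 38.8 CPM, which overlapped C15 (17.1 and 44.5 CPM), and below 6 CPM on average in C2 to C5 at their main stages. The share of C11 cells with an *Irf7* UMI, after each cell had been thinned to 1000 UMIs, was 7.04% (95% exact interval 3.43% to 12.6%) and 5.62% (1.85% to 12.6%), against 0.610% and 0.575% in the differentiated hormone-sensing cells of NP mice, which were sequenced deeper (median 10120 and 10280 UMIs per cell against 6691 and 8065). Without thinning, the shares in C11 were 32.4% and 29.2%. The place of C9, the differentiated alveolar cells of lactation, depends on its milk transcripts: with milk genes left out of the total it had 63.2 and 30.1 CPM of *Irf7*, 50.6 and 39.3 CPM of *Irf1* and 18.97 and 50.9 CPM of *Isg15*, against 34.9 and 17.5, 27.95 and 22.9, and 10.5 and 29.65 CPM with them.

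The surface proteins split the luminal compartment. *Bst2* was highest in alveolar clusters, with 262.8 and 220.9 CPM in C8, followed by C9 (131 and 211.6 CPM), C10 (173.7 and 162.2 CPM) and C11 (150.8 and 135.2 CPM). With 8 milk protein genes left out of the total, C9 had 237.1 and 363.1 CPM of *Bst2* and C8 290.9 and 234.3 CPM, so that C9 then had the higher mean and the order of both is not settled. *Bst2* was lowest in the basal clusters C14 (29.4 and 32.3 CPM) and C12 of NP mice (22.3 and 21.0 CPM). After thinning, 25.0% and 19.8% of C8 cells had a *Bst2* UMI (89.8% and 82.4% unthinned), against 1.59% and 0.707% of NP basal cells. *Ly6a* had its highest level in C4, the differentiated hormone-sensing cells of NP mice, at 908.6 and 724.2 CPM, and fell off through C2 (488.4 and 348.8 CPM) and C3 (211.7 and 399.8 CPM), which overlap each other, to C1 (122.3 and 191 CPM). C9 stood next with 124 and 165.8 CPM, overlapping C1, but with milk genes left out it had 224.5 and 284.4 CPM of *Ly6a*, above C1 without overlap (123.1 and 192.4 CPM). All further clusters stayed below 81 CPM at their main stage, down to 4.55 and 6.18 CPM in the basal cluster C13 of gestation.

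*Ido1* was nearly confined to the hormone-sensing clusters C1 to C4. It stood at 317.6 and 870.6 CPM in C3, at 99.5 and 301.8 CPM in C1, at 164.4 and 94.6 CPM in C4 and at 70.4 and 38.7 CPM in C2. The 2 PI mice thus lay far apart in C3, and single cells held up to 104 UMIs. In the same NP libraries *Ido1* was at 3.32 and 2.898 CPM in luminal progenitors, where 0% and 0.631% of thinned cells had a UMI (0 of 372 cells, which allows up to 0.806%), against 11.7% and 7.40% in differentiated hormone-sensing cells (46.1% and 33.8% unthinned). No UMI was found in C5, the hormone-sensing cells of gestation, nor in C9, C10, C11 or C15 at their main stages.

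Between stages, *Ly6a* and *Bst2* changed in most cell types and *Isg15* in 1 comparison. *Ido1* changed in hormone-sensing cells, and from NP to G also in basal cells. Sums per mouse were compared with edgeR's quasi-likelihood test, with p adjusted over all genes tested. With 2 mice against 2, an exact permutation test of a single gene cannot go below p = 0.333, so the calls rest on the spread that edgeR shares between genes. Where 1 mouse is left out below, the lone mouse of its stage is assumed to vary like the other stage, and a small p there is no added support. From NP to PI, 3 of 8 tested members passed in luminal progenitors, where 26.9% of all 10766 genes did. Of these, 2 were higher and 1 was lower (all genes, 13.9% and 13.0%). In hormone-sensing progenitors 3 of 7 passed (all genes, 16.6%), with 2 higher and 1 lower (9.58% and 7.05%). In differentiated hormone-sensing cells 4 of 7 passed (14.3%), with 2 higher and 2 lower (7.64% and 6.65%). In basal cells, of which PI mice had 28 and 59, none of 7 passed with edgeR or DESeq2 and 1 had an unadjusted p under 0.05, where 4.47% of all genes passed (1.92% higher, 2.54% lower).

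From NP to G, 3 of 7 members passed in differentiated hormone-sensing cells (all genes, 18.7%), from 20 and 41 cells of G mice, and these 3 were lower (8.04% of all genes were higher and 10.6% lower). In this fit, unlike the others, edgeR used the shared spread alone. Its p-values thus take no account of a gene's own spread between mice. In basal cells 4 of 7 passed (39.9%), with 1 higher and 3 lower (21.0% and 18.9%). From G to L, 2 of 7 passed in basal cells (50.1%), both higher (25.2% higher and 24.9% lower over all genes). In differentiated alveolar cells 3 of 7 passed (18.7%) and in alveolar progenitors 3 of 6 (28.0%), each higher, whereas over all genes 9.54% and 15.7% were higher and 9.17% and 12.3% lower. No member was lower from G to L in these 3 cell types by edgeR, by DESeq2 or at an unadjusted p under 0.05. Between 50.7% and 80.8% of all tested genes had no overlap between the mice of the 2 stages, so lack of overlap alone is common here. Fewer expressing cells and less RNA per cell cannot be told apart in these sums.

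The scaling (TMM) moved the fitted changes against the ratio of CPM by a median of 0.90 on the log2 scale in differentiated alveolar cells, where milk proteins (*Csn2*, *Wap* and *Lalba*) summed to 189200 and 184900 CPM in L mice, by 0.28 in alveolar progenitors, by −0.24 in differentiated hormone-sensing cells from NP to G, by −0.15 in basal cells from NP to PI and by 0.13 from G to L. Elsewhere the shift was below 0.1. Basal comparisons share 1 fit, and those from NP to PI and to G share NP mice.

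**Figure D2:**
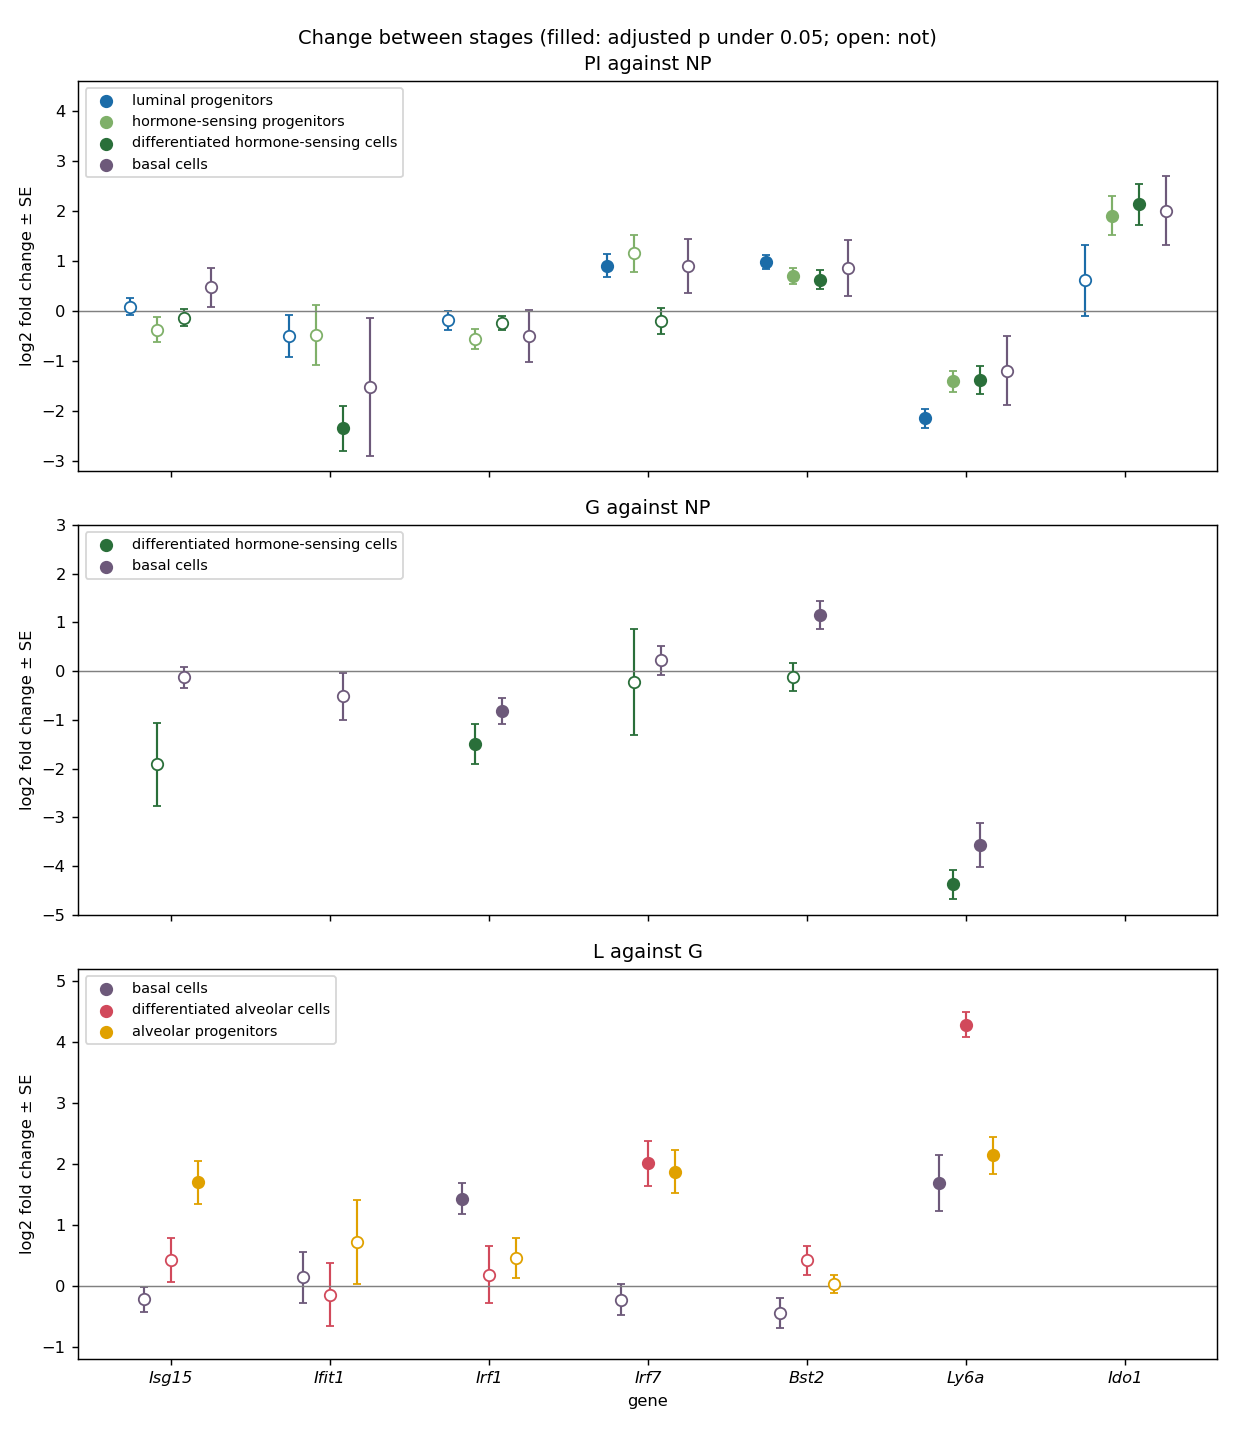
Fitted log2 fold change ± SE (vertical axis) of 7 members (horizontal axis) between stages in each cell type; filled points passed the test (adjusted p under 0.05) and open points did not. *Ifit3* is left out, as are *Ido1* from NP to G and from G to L, and *Ifit1* from NP to G in differentiated hormone-sensing cells. Some points shown rest on few UMIs. *Isg15* and *Irf7* in differentiated hormone-sensing cells from NP to G have 2 UMIs each in G. *Ifit1* in basal cells from NP to PI has 1 UMI in PI. *Ly6a* is lower in PI and G than in NP and higher in L than in G wherever it passed.

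*Ly6a* was lower after involution in all 3 luminal types. In luminal progenitors it stood at 11.8 and 8.35 CPM in PI mice and 49.2 and 45.1 CPM in NP mice, a log2 change of -2.15 ± 0.19 (SE, adjusted p = 2.15e-05). After thinning, 1.18% and 0.541% of PI cells had a UMI against 4.30% and 4.42% of NP cells. In hormone-sensing progenitors the levels were 119.4 and 191.4 CPM against 488 and 348.8 CPM (-1.41 ± 0.21, adjusted p = 0.000921), and in differentiated hormone-sensing cells 223.5 and 414.3 CPM against 907.4 and 722.2 CPM (-1.38 ± 0.27, adjusted p = 0.00642). There, 14.4% and 23.5% of thinned PI cells had a UMI against 52.8% and 43.6% of NP cells. With DESeq2 the last change missed the threshold (adjusted p = 0.0508). The few PI cells that fell into the NP cluster C4 had 347.9 CPM (40 cells) and 846.5 CPM (88 cells). These cells were placed in C4 by their transcripts, so their levels are no separate evidence on the change between stages.

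In gestation *Ly6a* was also lower than in NP mice. Differentiated hormone-sensing cells had 16.2 and 61.9 CPM in G against 908.6 and 724.2 CPM in NP mice (-4.37 ± 0.30, adjusted p = 2.62e-46, from 18 UMIs in G). That p rests on the spread shared between genes alone, while the G mice held 2 and 16 UMIs. Basal cells had 4.78 and 6.06 CPM against 80.4 and 54.2 CPM (-3.57 ± 0.45, adjusted p = 1.25e-05). From G to L the direction turned. Differentiated alveolar cells had 122.9 and 165.1 CPM in L and 14.8 and 13.02 CPM in G (4.29 ± 0.20, adjusted p = 2.64e-08), and alveolar progenitors 69.1 and 43.7 CPM against 13.8 and 17.5 CPM (2.14 ± 0.31, adjusted p = 0.000914). The fibroblast marker *Dcn* was called higher in L in both types (2.50 and 3.68). Fibroblast markers summed to 74.5 and 14.8 CPM in L against 45.4 and 18.6 CPM in G differentiated cells, with up to 2 of 5 at 0, and to 116.1 and 65.6 CPM against 24.5 and 17.5 CPM in progenitors, with up to 1 at 0. Their part in the *Ly6a* changes was not tested. In basal cells the L mice differed, with 24.3 and 7.46 CPM against 4.78 and 6.06 CPM in G (1.68 ± 0.46, adjusted p = 0.00564), and the call was lost without the first L mouse (0.61, adjusted p = 0.11) or the first G mouse (1.52, adjusted p = 0.0515). In L mice *Ly6a* was held by few cells, the highest 1% of the C1 to C15 cells carrying 57.2% and 73.7% of its UMIs. The fibroblast markers, whose cluster C18 has the highest *Ly6a*, in basal cells summed to 174.9 and 256.3 CPM (NP), 884.1 and 664.8 CPM (G) and 640.2 and 507 CPM (L), with none of the 5 at 0. Their part in the basal *Ly6a* levels was not tested. Endothelial markers, whose cluster C19 had 1068 and 1552 CPM of *Ly6a* in L mice, summed to 59.8 and 28.2 CPM in L and 26.2 and 25.6 CPM in G basal cells, with none of the 6 at 0, and *Pecam1* and *Eng* of that list were called higher in L (1.05 and 0.79). The first L mouse was thus the higher one in both *Ly6a* and endothelial markers, and their part was not tested.

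*Bst2* was higher in PI than in NP mice in each luminal type. Luminal progenitors had 91.7 and 89.9 CPM against 53.4 and 43.5 CPM (0.98 ± 0.14, adjusted p = 0.000524), which passed under each alternative tried. Hormone-sensing progenitors had 94.8 and 108.6 CPM against 72.4 and 52.6 CPM (0.70 ± 0.16, adjusted p = 0.0109), a call lost without the second NP mouse (0.53, adjusted p = 0.187) and at equal depth (0.55, adjusted p = 0.0601). In differentiated hormone-sensing cells 99.2 and 136.8 CPM stood against 81.4 and 68.4 CPM (0.62 ± 0.19, adjusted p = 0.0467), and this was lost without the second PI mouse (0.29, adjusted p = 0.288) or either NP mouse (0.72 and 0.54, adjusted p = 0.0647 and 0.181), and with the study's filter on low counts (0.60, adjusted p = 0.0537). Basal cells gained *Bst2* from NP to G, with 57.3 and 34.6 CPM against 22.3 and 20.9 CPM (1.15 ± 0.29, adjusted p = 0.0047), again lost without 1 library, the first G mouse (0.75, adjusted p = 0.0894). In alveolar cells *Bst2* did not pass the test from G to L. Differentiated cells had 129.9 and 210.7 CPM in L against 262.8 and 220.9 CPM in G. Their fitted change was 0.42 ± 0.23 (adjusted p = 0.238), the scaling giving it the opposite sign to the CPM. In progenitors it was 0.03 ± 0.15 (adjusted p = 0.911).

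*Ido1* was higher in PI than in NP hormone-sensing cells, with a wide spread between the PI mice. In differentiated cells it stood at 302.2 and 855.7 CPM against 164.6 and 97.3 CPM (2.13 ± 0.40, adjusted p = 0.00525), with DESeq2 giving adjusted p = 0.0669. Without the second PI mouse the change was 1.10. The PI mice differ in oestrous phase, which cannot be told apart here from other differences between them. After thinning, 15.9% (12.7% to 19.6%) and 39.4% (37.5% to 41.3%) of PI cells had a UMI against 11.7% (9.76% to 13.9%) and 7.40% (5.99% to 9.01%) of NP cells, so the first PI mouse was close to the first NP mouse. In progenitors 98.9 and 301 CPM stood against 70.5 and 38.7 CPM (1.90 ± 0.39, adjusted p = 0.00648), which was not kept without the first NP mouse (2.37, adjusted p = 0.0501) or the second (1.58, adjusted p = 0.155), nor by DESeq2 (adjusted p = 0.179), and without the second PI mouse it was 0.80.

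During gestation *Ido1* was not detected in 61 differentiated hormone-sensing cells. Their 381612 UMIs allow up to 7.86 CPM (3 counts over both mice), which is at least 16.2-fold lower than in the same cell type of NP mice. Basal cells of G mice gave 1 UMI against 49 in NP mice, a ratio of 64 with an exact interval of 11 to 2580 from counting alone (adjusted p = 0.000274), and NP basal cells had 8.23 and 6.37 CPM where 0.794% and 0.353% of thinned cells had a UMI, a share that overlaps that of NP luminal progenitors. L mice had 3 UMIs in 7744 basal cells.

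*Irf7* was higher in PI luminal progenitors, at 16.96 and 14.96 CPM against 9.96 and 7.87 CPM (0.90 ± 0.23, adjusted p = 0.0142). This was lost without the second NP mouse (0.78, adjusted p = 0.0626) and by DESeq2 (adjusted p = 0.112). In hormone-sensing progenitors 10.3 and 10.7 CPM against 6.57 and 2.31 CPM missed the threshold (adjusted p = 0.0543), and differentiated hormone-sensing cells had 5.48 and 4.17 CPM against 5.25 and 5.02 CPM. Luminal progenitors and differentiated hormone-sensing cells differed in their change from NP to PI by 1.16 ± 0.35 for *Irf7* (adjusted p = 0.0228) and by -1.48 ± 0.46 for *Ido1* (adjusted p = 0.028), 2 of 7 tested members against 17.8% of all genes (10.3% higher and 7.47% lower) in a fit with a term for each mouse. Both were lost without either NP mouse, *Irf7* at 1.37 and 1.01 (adjusted p = 0.0672 and 0.17) and *Ido1* at -1.77 and -1.29 (adjusted p = 0.139 and 0.193), and *Irf7* also without the second PI mouse (1.09, adjusted p = 0.127). At equal depth *Ido1* had the opposite sign (0.92, adjusted p = 0.852), and with the replicate number as a block in place of the mouse it was -1.37 (adjusted p = 0.575). Between luminal progenitors and basal cells the change differed in none of 7 with edgeR, nor at an unadjusted p under 0.05, where 7.90% of all genes did (5.99% higher, 1.90% lower).

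Lactation brought higher *Irf7* in both alveolar types. In differentiated cells it stood at 34.6 and 17.5 CPM against 12.7 and 10.5 CPM in G mice (2.01 ± 0.37, adjusted p = 0.00217), and in progenitors at 72.7 and 38.0 CPM against 22.95 and 14.97 CPM (1.88 ± 0.36, adjusted p = 0.00433). *Isg15* was higher in L alveolar progenitors alone among the members' comparisons, at 72.7 and 81.7 CPM against 42.8 and 16.2 CPM (1.70 ± 0.35, adjusted p = 0.00666), and without the second G mouse the change was 1.12 (adjusted p = 0.00965). These progenitors, C11 in L and C10 in G mice, also differed in genes of other cells. Basal markers summed to 4495 and 3304 CPM in L against 126.2 and 196.5 CPM in G, milk proteins to 25640 and 20980 CPM against 1194 and 604.5 CPM, and myeloid markers to 387.3 and 333.5 CPM against 54.3 and 54.9 CPM, with 2 and 4 of the 9 myeloid genes at 0 in L. In differentiated cells basal markers summed to 2007 and 877.9 CPM against 110.9 and 106.9 CPM, and myeloid markers to 334.2 and 96.7 CPM against 93.8 and 127.9 CPM, the first L mouse being the higher one in these and in *Irf7*. The part of all these in the results was not tested. *Ifit3* in differentiated alveolar cells (3.46 and 8.05 CPM against 2.23 and 1.32 CPM, 2.64 ± 0.79, adjusted p = 0.0346) rested on 8 UMIs in L mice and was lost without the second L mouse (1.76, adjusted p = 0.46).

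*Irf1* followed the stages of the basal lineage. Basal cells of NP mice had 58.1 and 56.0 CPM, those of G mice 44.5 and 17.5 CPM and those of L mice 77.6 and 73.9 CPM. The rise from G to L (1.43 ± 0.25, adjusted p = 0.000166) passed under each of the 9 alternatives in which *Irf1* was tested. Equal depth was not among these. The rise was 2.23 without the first G mouse and 0.91 without the second. The fall from NP to G (-0.82 ± 0.27, adjusted p = 0.024) was -1.63 without the first G mouse. It was lost without the second (-0.27), without either NP mouse (-0.81 and -0.82) and by DESeq2 (-0.74, adjusted p = 0.129). In the dissociation stress list, all 10 genes rose from G to L and 8 of 10 from NP to G. Of all genes tested, 25.2% and 21.0% were called higher in these steps. The part of dissociation in the *Irf1* changes was not tested. Differentiated hormone-sensing cells had 24.3 and 27.1 CPM in G against 65.4 and 59.1 CPM in NP mice (-1.49 ± 0.41, adjusted p = 0.00307, from 10 UMIs in G), lost without the second G mouse (-1.63, adjusted p = 0.163).

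*Ifit1* fell from NP to PI in differentiated hormone-sensing cells, from 5.17 and 5.84 CPM to 2.47 and 0.685 CPM (-2.35 ± 0.44, adjusted p = 0.00525), and the change was -1.27 without the second PI mouse (adjusted p = 0.0385). Few cells carried it: 32 of 983 and 37 of 1217 NP cells, against 5 of 452 and 8 of 2575 PI cells. In each NP mouse 5 cells with at least 5 UMIs gave 38 of 66 and 43 of 85 UMIs, and PI mice had no such cell. Elsewhere *Ifit1* did not pass, for instance in luminal progenitors with 8.75 and 20.7 CPM against 13.9 and 32.3 CPM, where the mice of a stage differed more than the stages.

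Other genes of the response were read from lists that share no gene with the members. Of type I response genes, 9 of 26 tested were higher and none lower (none by DESeq2, 1 at an unadjusted p under 0.05) from G to L in differentiated alveolar cells, and 10 of 19 higher and 1 lower in alveolar progenitors, with medians of 0.59 and 0.94 on the log2 scale against -0.14 and -0.03 for all genes, of which 9.54% and 15.7% were higher. In progenitors *Ifi27l2a*, an interferon-induced membrane protein gene, stood at 203 and 202.4 CPM against 10.7 and 20.0 CPM (3.97 ± 0.24), and *Ifitm3*, which blocks virus entry, at 932.3 and 1003 CPM against 189.7 and 223.3 CPM (2.51 ± 0.16). *Oas1a*, a sensor enzyme of double-stranded RNA, changed by 3.69 ± 0.71 there (6.99 without the first G mouse) and by 4.20 ± 0.98 in differentiated cells, where it was lost without the second L mouse (3.45, adjusted p = 0.209). Of the interferon gamma list, 8 of 21 were lower and none higher (also none by DESeq2 or at an unadjusted p under 0.05) in differentiated cells, where 9.17% of all genes were lower, and 4 of 15 were lower and 2 higher in progenitors, where 12.3% and 15.7% of all genes were. *Psmb9*, an immunoproteasome subunit, fell from 100.5 and 95.7 CPM to 6.93 and 6.71 CPM in differentiated cells (-2.94 ± 0.32), and the chemokine gene *Cxcl10* fell by 2.65 ± 0.45 there and by 3.9 ± 0.22 in progenitors.

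In basal cells 9 of 21 genes of the gamma list were higher and 1 lower from NP to G (all genes, 21.0% and 18.9%), and from G to L 1 was higher and 9 lower (25.2% and 24.9%), a total share near that of all genes (50.1%). The G mice are shared by both steps. *Irf8*, a factor of myeloid cells, stood at 8.05 and 14.6 CPM in G against 0.94 and 1.82 CPM in NP mice, and *Cxcl10* at 37.2 and 28.1 CPM against 6.82 and 6.83 CPM. Myeloid markers in basal cells moved alongside, at 110 and 141.6 CPM (NP), 255.5 and 289.3 CPM (G) and 186.7 and 160.9 CPM (L), with at most 4 of 9 genes at 0, and their part was not tested. The inhibitor gene *Socs3* rose from G to L in basal cells (4.17 ± 0.29), alveolar progenitors (3.93 ± 0.18) and differentiated alveolar cells (3.65 ± 0.21).

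From NP to PI, 5 of 23 type I genes were higher and 1 lower in luminal progenitors, a share near that of all genes (13.9% higher and 13.0% lower). Higher were *Samhd1*, which depletes nucleotides, at 69.3 and 64.1 CPM against 27.5 and 29.4 CPM (1.32 ± 0.15), and *Ifi27* at 269.4 and 218.8 CPM against 120.7 and 105.6 CPM (1.19 ± 0.14). *Gbp2*, a guanylate-binding protein of the gamma response, was among 6 of 17 higher, and *Cxcl10* among 3 lower, at 13.5 and 7.60 CPM against 36.8 and 30.2 CPM. The receptor gene *Ifnar1* was lower (-0.80), a call lost by DESeq2 (adjusted p = 0.101) and without the first PI mouse (0.0563) or the second NP mouse (0.131). In differentiated hormone-sensing cells 3 of 25 type I genes were higher and 4 lower (all genes, 7.64% and 6.65%), with *Rsad2* and *Rtp4* lower (-2.01 ± 0.33 and -1.498 ± 0.282, or -3.17 and -0.87 without the second PI mouse). Antigen-processing genes of the gamma list rose there, *Psmb8* to 369.6 and 412.6 CPM from 216.9 and 160.8 CPM and *Tap2* to 153.7 and 191.1 CPM from 99.8 and 60.7 CPM. Among the *Ly6a* relatives, *Ly6d* fell with it from 2577 and 2330 CPM to 1121 and 1496 CPM (-0.96 ± 0.22, lost without the first PI mouse with adjusted p = 0.0691), whereas *Ly6k* rose from 8.30 and 12.6 CPM to 69.03 and 27.5 CPM (2.03 ± 0.34). Of 10 other tryptophan breakdown genes at most 3 had enough counts for a test in a comparison, and none passed with edgeR or DESeq2 (1 had an unadjusted p under 0.05, in luminal progenitors). Of 10 interferon genes 1 could be tested, in differentiated hormone-sensing cells, and it did not pass.

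**Figure D3:**
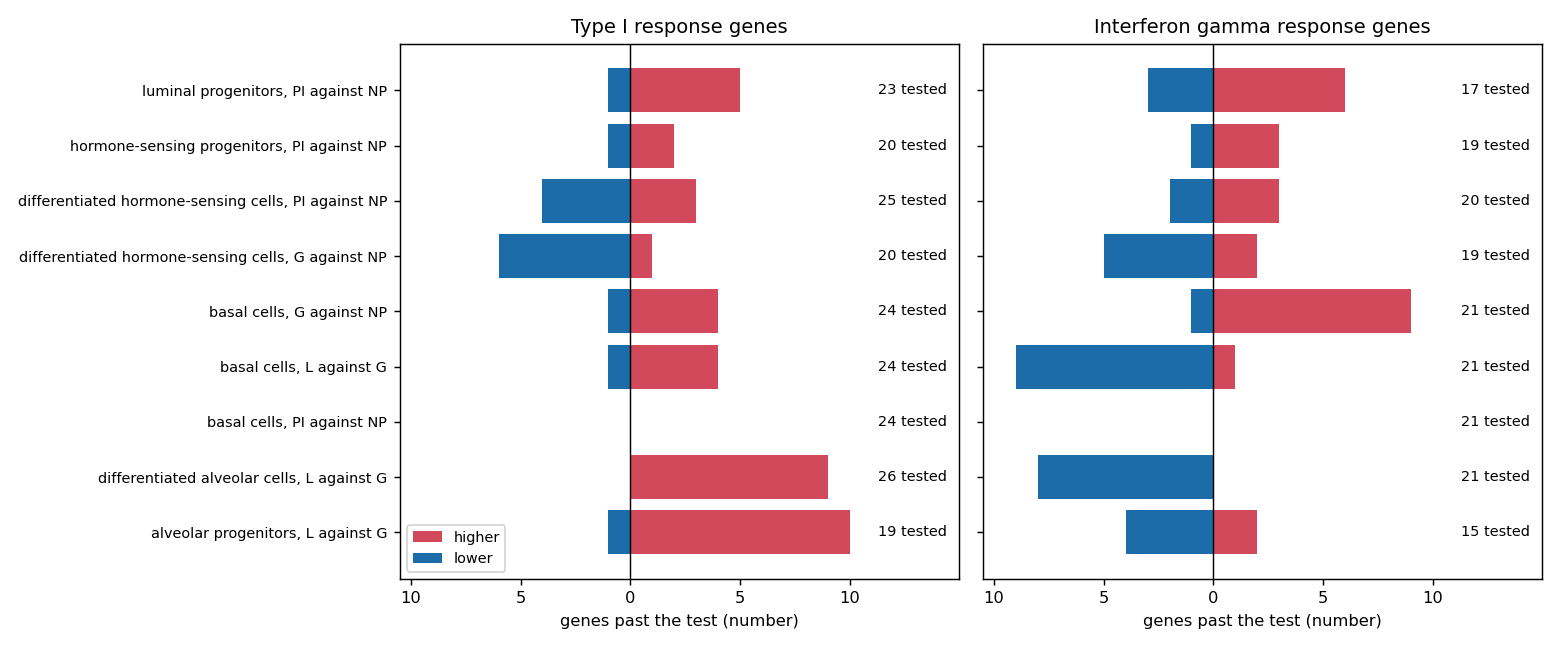
Number of genes past the test that were higher (right) or lower (left) in each stage comparison for the type I list and the interferon gamma list, with the number tested beside each bar. In alveolar cells from G to L the type I bars point right, with 9 and 10 genes higher, and the gamma bars mostly left, with 8 and 4 genes lower.

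*Ifit1* and *Ifit3* were concentrated in rare cells, whereas *Bst2* and *Irf1* were spread over many. Among the 23183 cells of C1 to C15, 623 (2.69%) had an *Ifit1* UMI, and the highest 1% of cells (231) held 77.0% of its 1706 UMIs. All 245 *Ifit3* UMIs lay in 156 cells. For *Isg15*, *Irf7*, *Ido1* and *Ly6a* the highest 1% held 29.3%, 31.2%, 34.0% and 22.02%, and for *Bst2* and *Irf1* 13.2% and 12.9%, against 5.19% of all UMIs. A gene with fewer UMIs reaches a high share in fewer cells by counting alone, so these shares are not compared by a test.

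**Figure D4:**
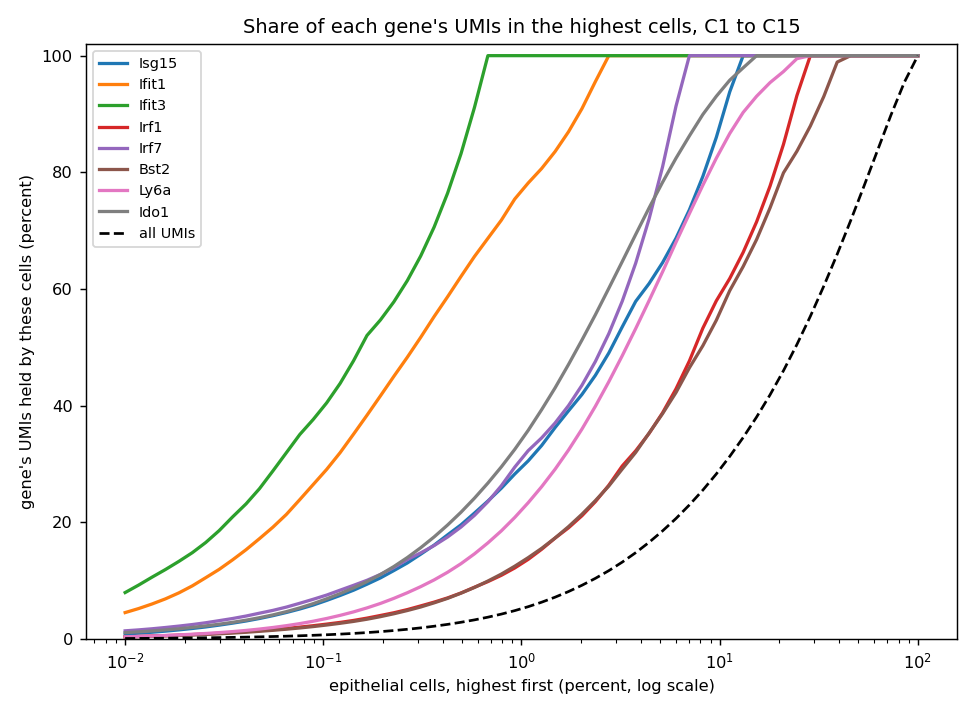
Share of each member's UMIs (vertical axis, percent) held by the cells with the most of it (horizontal axis, percent of the 23183 cells of C1 to C15, log scale), with all UMIs as the dashed line. The *Ifit3* and *Ifit1* curves lie far to the left, and those of *Bst2* and *Irf1* nearest to the dashed line.

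Cells with at least 5 *Ifit1* UMIs, a limit set after the counts were seen, numbered 85 (0.367%) and held 55.6% of the gene's epithelial UMIs, up to 35 in 1 cell. They came from 9 clusters and 7 of 8 mice, with 12 and 9 from NP mice, 27 and 18 from G mice, 2 and 0 from L mice and 4 and 13 from PI mice. Per 1000 cells of C1 to C15 these were 5.64 and 4.53 (NP), 10.5 and 6.94 (G), 0.397 (first L mouse), and 2.78 and 3.145 (PI). The limit was not adjusted for depth, and L libraries had fewer UMIs per cell (median 3770 and 4258, against 5826 to 9624 in the others). The differentiated alveolar cluster C8 held 44 of them, 11.7 per 1000 cells, and the luminal progenitor clusters C7 and C6 held 15 and 7 (7.79 and 9.64 per 1000). C9 held 1, which is 11.2 per 1000 of its 89 cells. In the 85 cells myeloid and lymphocyte markers summed to 272 and 7.86 CPM, against 91.4 and 2.635 CPM in cells without *Ifit1*. Fibroblast and endothelial markers were lower in them, at 132.1 and 6.29 CPM against 176.2 and 18.54 CPM. The 2 cells of the first L mouse held 6312 CPM of myeloid markers. The part of other cell types in these cells was not tested. Of the 85 cells, 74 also had an *Isg15* UMI and 30 an *Ifit3* UMI.

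Within C8, these cells also had more of other members in both G mice. In the first mouse 26 such cells had 316.2 CPM of *Isg15*, against 23.2 CPM in 1816 cells without *Ifit1*, and in the second 18 such cells had 303 CPM against 21.1 CPM in 1738 cells. *Ifit3* stood at 114.3 and 63.4 CPM against 0.447 and 0.193 CPM, and *Irf7* at 65.7 and 28.2 CPM against 11.4 and 10.2 CPM. For *Bst2* the difference was smaller, 454.9 and 257.2 CPM against 257 and 219.1 CPM, and *Ido1* had no UMI in these cells. *Ly6a* differed in the first mouse (87.6 against 13.7 CPM) and hardly in the second (14.1 against 13.01 CPM). These cells were somewhat deeper, with medians of 13050 and 11910 UMIs against 10810 and 8560. Myeloid markers were at 204.3 against 61.9 CPM in the first mouse and at 70.5 against 131.4 CPM in the second, and fibroblast markers at 87.6 against 28.8 CPM and 3.52 against 14.5 CPM, the same mouse being higher as for *Ly6a*, which was not tested further. The second mouse's cells held no lymphocyte or endothelial marker UMI.

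**Figure D5:**
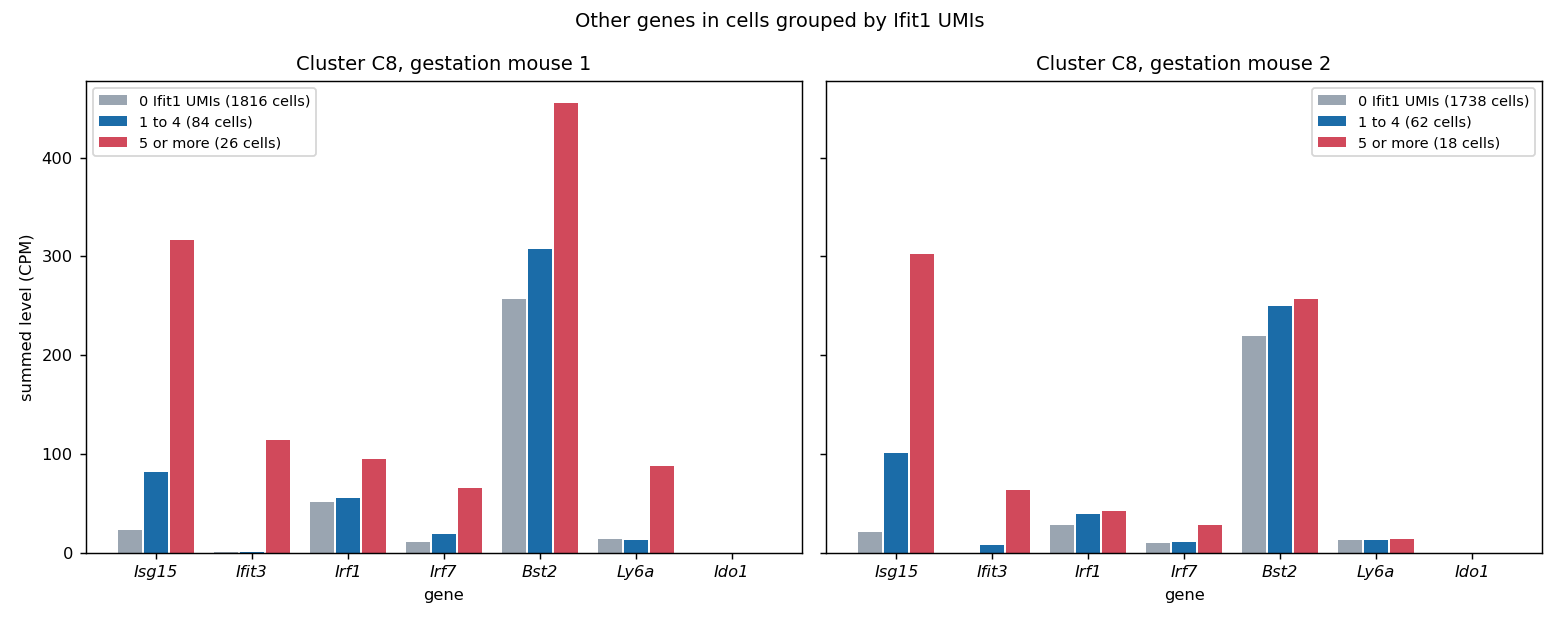
Summed level (vertical axis, CPM) of 7 members (horizontal axis) in C8 cells of the 2 gestation mice, divided by the number of *Ifit1* UMIs in the cell. In both mice *Isg15*, *Ifit3* and *Irf7* are highest in the cells with 5 or more *Ifit1* UMIs, with *Isg15* at 316.2 and 303 CPM.

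Across the 51 sums of mouse and cluster, *Isg15*, *Ifit1*, *Ifit3* and *Irf7* varied together, with Spearman's rho between 0.69 and 0.83 for each pair. *Bst2* came close, with rho between 0.64 (*Isg15*) and 0.72 (*Irf7*) to these genes, while *Ido1* ran from -0.57 with *Irf7* to 0.24 with *Ly6a*. The sums include C17 to C19, where 7 members had a higher median level, and rho within the epithelium alone was not computed. These are descriptions over sums that share libraries, depth and milk content. Of 8471 genes with a mean of at least 10 CPM, the most similar to *Isg15* were *Rtp4* (0.87), *Irf7* (0.83) and *Sp100* (0.81), and to *Irf7* they were *Rtp4* (0.86), *Isg15* (0.83) and *Ifi27l2a* (0.82). *Ifit1* was most like *Lmo2* (0.83), *Ifit3* (0.80) and *Ifih1* (0.79), and *Ifit3* most like *Insig1* (0.82), *Lmo2* (0.82) and *Ifi27l2a* (0.81). *Bst2* had *Trim30a* (0.80), *Npc2* (0.79) and *Lgals3bp* (0.79) as its nearest genes. For *Ly6a* these were *Sqrdl* (0.80), *Npdc1* (0.78) and *Iigp1* (0.76), and for *Irf1* *Trip4* (0.74), *Spop* (0.73) and *Orai3* (0.69). *Ido1* was closest to *Cyp3a57* (0.92), *Dmbt1* (0.86) and *Aoc1* (0.86).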

How the data were processed

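Single mammary cells of 8 mice (2 per stage, each a separate animal) had been sequenced with droplet 3′ libraries. Per the submitters' processing notes and methods, the authors aligned reads with STAR in Cell Ranger to mm10, and the deposited matrices hold UMI counts per gene and cell, not normalized. Quality flags, clusters C1 to C19 and the mitochondrial share of each cell, a fraction, were taken from the authors' deposited cell table. The authors had removed barcodes seen in more than 1 library (against index swapping) and set aside cluster C20 as doublets. One combined matrix was not used here. Library depth ranged from 13785920 to 35711533 UMIs, and 1 cell could not be joined to its counts.

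UMIs were summed over each mouse and cell type (at least 20 cells) and tested with edgeR 4.0.16 (limma 3.58.1, R 4.3.3) by TMM scaling, filterByExpr and quasi-likelihood F-tests, with Benjamini-Hochberg adjustment over all genes and a threshold of 0.05. Changes were compared between cell types in a fit with a term for each mouse. The fit was tested on simulated data. DESeq2 1.42.0, other filters, equal depth, milk genes left out, a replicate block and leaving out each mouse were alternatives. Shares of cells used cells thinned to 1000 UMIs with exact Clopper-Pearson 95% intervals, and a count of 0 was given a limit of 3 counts. These reflect counting error and not the spread between mice. Likeness was Spearman's rho of log2(CPM + 1), computed here from the deposited counts, in Python 3.11.15.

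Members and gene lists were chosen with earlier results of these data known. From each of 20 lists and each comparison, at most 3 genes per direction with the largest change past the test could be named, and for each member the 3 most similar genes.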

Additional observations from a re-analysis of the deposited data

Results flagged for a closer look

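The change from nulliparous to post-involution mice was tested for a difference between luminal progenitors and differentiated hormone-sensing cells, and 2 of 7 members passed. For *Irf7* the log2 change was higher by 1.16 ± 0.35 (SE) in luminal progenitors (edgeR, adjusted p = 0.0228), where both post-involution mice were above both nulliparous mice, and the levels in hormone-sensing cells overlapped between stages. This call was lost under 3 of 6 alternatives. For *Ido1* it was lower by 1.48 (a difference of -1.48 ± 0.46, edgeR, adjusted p = 0.028), with 18 UMIs in luminal progenitors of nulliparous and 71 in those of post-involution mice. It was lost under 3 of 7 alternatives and had the opposite sign under 1, equal depth.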

How the results depend on the processing

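The 27 member calls were repeated under the alternatives, and 14 kept direction and threshold under each one run, while 13 were lost or reversed under at least 1. DESeq2 kept 20 and lost 5, equal depth kept 15, lost 1 and reversed 1, and leaving out 1 mouse kept the call in 86 repeats and lost it in 20. At equal depth the remaining calls of the 27 had no test, because their genes fell below the count filter. The 14 kept calls thus do not all include a check of depth. The reversed value was the difference for *Ido1* between luminal progenitors and differentiated hormone-sensing cells, 0.916 at equal depth (adjusted p = 0.852), where the cause was not tested. Of 23 values of list genes named in the text, 20 kept their call throughout.

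Counts of genes called moved by over 1.5 times in some settings. DESeq2 called 1589 instead of 2892 genes in luminal progenitors from NP to PI, 823 instead of 1778 in hormone-sensing progenitors and 1144 instead of 2368 in alveolar progenitors from G to L. The study's filter, which tests fewer genes, gave 1070 instead of 1714 in differentiated hormone-sensing cells from NP to PI, 2916 instead of 4739 in basal cells from NP to G and 3489 instead of 5949 from G to L. At equal depth, where each sum was thinned to the smallest total, 636 instead of 2048 genes were called in differentiated hormone-sensing cells from NP to G, 365, 576 and 213 in basal cells from NP to G, G to L and NP to PI, 1308 instead of 2219 in differentiated alveolar cells, and 47 instead of 2145 and 81 instead of 954 for the differences between cell types (hormone-sensing and basal). With no filter 877 instead of 530 genes were called in basal cells from NP to PI. Leaving out 1 mouse gave 1704 to 2472 genes in luminal progenitors, 476 to 1960 in hormone-sensing progenitors, 928 to 2458 and 667 to 1381 in differentiated hormone-sensing cells (PI and G against NP), 2558 to 3869, 4079 to 5389 and 106 to 375 in basal cells (G against NP, L against G, PI against NP), 609 to 1890 in differentiated alveolar cells, 1625 to 2538 in alveolar progenitors, and 1095 to 2276 and 421 to 681 for the differences between cell types. Of the calls in differentiated alveolar cells, 51% were higher with all mice, 67.6% without the first G mouse and 73.2% without the second.

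Without thinning, the mean share of cells with a UMI was 24.4% for *Isg15* and 30.8% for *Irf7* in C11, 4.635% for *Ifit1* in C6, 4.826% for *Ifit3* and 35.54% for *Irf1* in C15, 86.09% for *Bst2* in C8, 92.52% for *Ly6a* in C4 and 57.38% for *Ido1* in C3.

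Replicate numbers are shared between stages, and the sample labels do not say whether they mark a common batch. Deviations of same-numbered mice correlated between -0.0747 and 0.138, the latter in alveolar progenitors. With so few mice per stage, these correlations cannot decide whether same-numbered mice shared a batch. With the number as a replicate block 3294, 1642 and 2058 genes were called from NP to PI in luminal progenitors, hormone-sensing progenitors and differentiated hormone-sensing cells, no member call was lost, and *Irf7* passed in hormone-sensing progenitors (1.28, adjusted p = 0.0476). In place of the mouse, the block gave -1.37 (adjusted p = 0.575) for the *Ido1* difference. Sums of few cells (20 and 41, 28 and 59) limit gestation hormone-sensing and PI basal comparisons.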
